A study of Mus musculus with 5 samples.

Results

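The enzymes of drug and steroid metabolism were examined in polyadenylated RNA of embryonic stem cells of the mouse, which are pluripotent cells grown in culture from early embryos. Members were all gene symbols of 7 enzyme families, namely the cytochromes P450 (Cyp), aldo-keto reductases (Akr), UDP-glucuronosyltransferases (Ugt), glutathione S-transferases (Gst), sulfotransferases (Sult), aldehyde dehydrogenases (Aldh) and hydroxysteroid dehydrogenases (Hsd). These symbols gave 160 members among 10855 symbols and 24538 gene entries. Deleted 1 and 2 were libraries of cells in which the −45 super-enhancer, a dense group of enhancers that takes its name from its position relative to Nanog, a pluripotency gene, had been removed. Wildtype 1, 2 and 3 were libraries of wildtype cells. Per the labels' protocols, cells received ethanol vehicle or 4-hydroxytamoxifen for 6 days, but no label ties either to a library. The series' text speaks of 3 replicates for each condition, so the deletion group may be held only in part here. The labels do not say whether the libraries of a group were grown separately or from 1 clone, so p-values cover the spread among these 5 libraries only, and that spread may be technical.

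Drug metabolism runs in stages. Oxidation or reduction by Cyp, Aldh and Akr enzymes exposes or changes a reactive group, and Ugt, Gst and Sult enzymes then attach a sugar acid, glutathione or sulfate that makes the product soluble. The same families make and clear steroid hormones, oxysterols, bile acids, retinoic acid and lipid mediators. Most of these enzymes are known from liver, intestine, adrenal and gonad rather than from stem cells.

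The members were weakly counted in these cells. Their summed level was 31.8 and 30.8 CPM (counts scaled to a common library size by TMM) in deleted 1 and 2, against 27.1, 27 and 25.8 CPM in wildtype 1, 2 and 3. All deleted libraries were above all wildtype libraries in that sum. The totals of exon-bin counts were 93574214 and 99133883 in the deleted libraries and 114838177 to 213042064 in the wildtype ones, which makes 1 count equal to 0.00463 to 0.0107 CPM. Some reads may fall in more than 1 bin, and counts are not independent molecules. Wildtype 3 was the deepest and stood apart, with a chi-square per degree of freedom of 93.4 and 87.4 against wildtype 1 and 2, which had 9.96 between them and 21.9 between the deleted pair. Symbol rows held 0.328% to 0.375% of the counts of a library, and the rest lay under assembly IDs with no symbol. Enzymes of these families under such IDs were not analysed here, and an ID that overlaps a symbol may hold part of its reads. All 9 pluripotency markers listed, Nanog among them, had no symbol row, so neither the cell type nor the targeted gene was checked.

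Of the 160 members, 36 had 0 counts in all 5 libraries and 71 more had too few for a test, with at most 17 counts in any library. The remaining 53 were tested. A gene had to reach 0.0871 CPM in at least 2 libraries, and 10 tested members met this only when the deleted libraries were counted, while 3 (Aldh3b2, Aldh8a1 and Cyp4f14) met it through wildtype libraries alone. Whether such a gene was tested depended on its level in 1 group. No Ugt gene could be tested: 7 of 11 were at 0 counts, and the other 4 had at most 2 counts in a library. The liver enzymes Cyp3a11, Cyp8b1 and Sult1d1 were at 0 counts throughout, as were Cyp11b1, Cyp11b2 and Cyp21a1, which make corticosteroids in the adrenal. A count of 0 allows up to 3 counts, or 0.0139 to 0.0321 CPM in a library, for counting error only. Hmgcs1, a cholesterol synthesis gene that every cell uses, was also at 0 in all 5 libraries, so a symbol row at 0 does not show that the gene is silent.

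**Figure D1:**
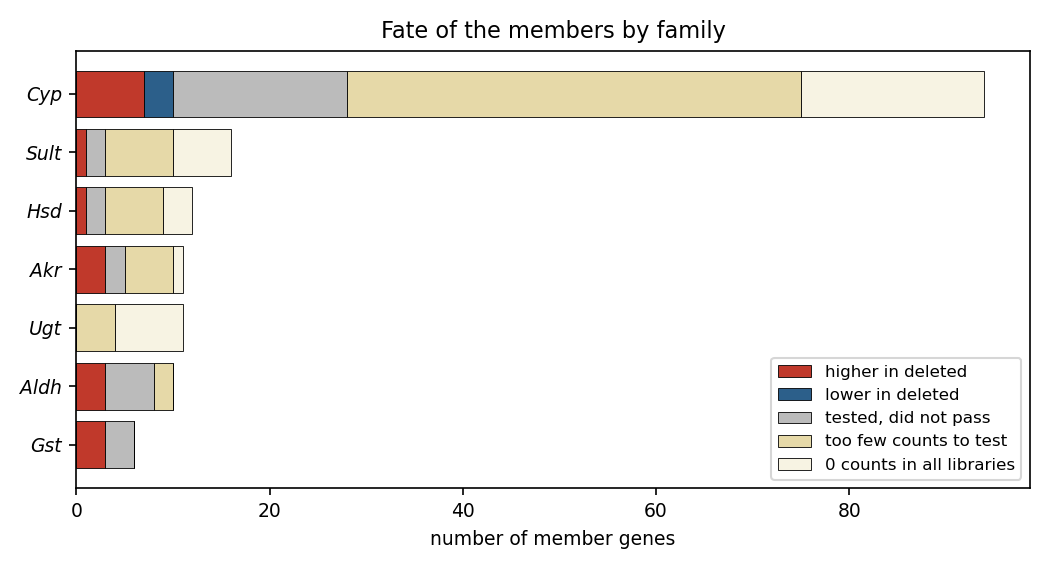
Number of member genes per family (horizontal axis) by fate in the comparison of deleted with wildtype libraries. Cyp is the largest family with 94 members, of which 7 were higher, 3 lower and 18 did not pass, while none of the 11 Ugt genes was tested.

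Deletion of the super-enhancer went with higher levels of 18 tested members, among them Aldh3a1, Akr1c18 and Gstm3, and with lower levels of Cyp11a1, Cyp4f17 and Cyp2c29, at an adjusted p under 0.05 (edgeR quasi-likelihood test, adjusted over all 16259 tested genes), and 32 did not pass. This was 34.0% higher and 5.66% lower. Of all tested genes 39.7% were called, 20.0% higher and 19.7% lower. Of the 3591 tested symbols 32.1% were called, 19.0% higher and 13.1% lower. Within the members' range of average level 30.9% of symbols were called, 19.1% higher and 11.8% lower. Among the 43 members that met the filter in wildtype libraries alone, 14 were higher (32.6%) and 3 lower (6.98%), where all such symbols had 17.2% higher and 14.1% lower, 31.3% in all. No test of these differences in share was made. The median log2 fold change (deleted over wildtype) of the tested members was 0.44, against 0.07 for all tested symbols. For those that met the filter in wildtype alone it was 0.33, against 0.01 for such symbols. Every deleted library lay above every wildtype library for 27 tested members and below for 6, while 32.8% and 24.2% of tested symbols did so.

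The number of calls depended on the 2 deleted libraries. Without deleted 1, 4 members were higher and 2 lower, and without deleted 2, 6 were higher and 1 lower. The share of tested symbols called in either direction was then 15.8% and 16.6%, against 32.1% with all libraries. These fits take the spread of the single deleted library from the wildtype group. Without wildtype 1 there were 11 higher and 4 lower members, without wildtype 2 there were 14 and 2, and without wildtype 3 there were 18 and 5. With every library left out in turn, the calls of 3 members held throughout, namely Aldh3a1, Akr1c18 and Cyp11a1.

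**Figure D2:**
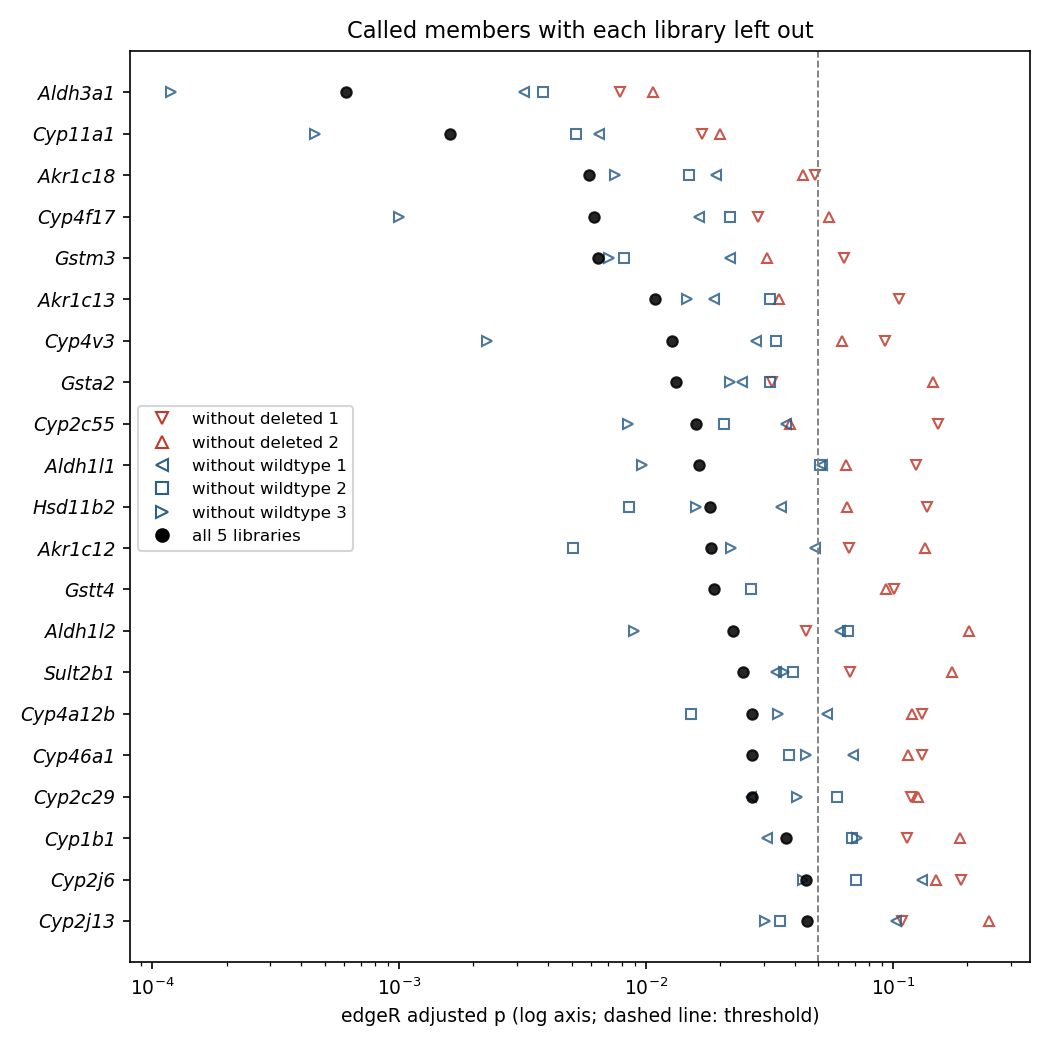
Adjusted p (log axis) of the 21 called members with all 5 libraries and with each library left out, the dashed line marking 0.05. Aldh3a1, Cyp11a1 and Akr1c18 stay left of the line in all fits, and each of the other 18 crosses it when at least 1 of the deleted libraries is left out.

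The enzymes that act on aldehydes and ketones held 6 higher members of 10 tested, where 19.0% of all tested symbols were higher. In wildtype libraries alone 9 of the 10 met the low-count filter. Akr1c12, among the 6, met it only with the deleted libraries, which favoured a positive sign. Of all symbols that met the filter in wildtype alone, 17.2% were higher. The Aldh1a genes and Aldh8a1 were counted with the retinoid pathway instead. By whole family, 3 of 5 tested Akr genes and 3 of 8 tested Aldh genes were higher. None of the 10 was lower by edgeR, by DESeq2 or at an unadjusted edgeR p under 0.05. Aldh3a1, an aldehyde dehydrogenase abundant in cornea, had 0.707 and 0.717 CPM in the deleted libraries, against 0.249, 0.263 and 0.296 CPM in the wildtype ones. The groups were well apart, and the log2 fold change was 1.38 ± 0.19 (SE; adjusted p = 0.00061, edgeR). This was the smallest p among the members. All 9 of its bins with at least 10 counts were above wildtype in both deleted libraries. In the most counted bin alone the difference did not pass, at 0.92 (adjusted p = 0.127, edgeR).

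Aldh1l1 and Aldh1l2 encode the cytosolic and mitochondrial formyltetrahydrofolate dehydrogenases, which release carbon dioxide from a folate-bound one-carbon unit. Aldh1l1 had 2.11 and 1.96 CPM in deleted cells and 1.5, 1.42 and 1.56 CPM in wildtype cells, a log2 fold change of 0.44 ± 0.12 (SE; adjusted p = 0.0164, edgeR). Aldh1l2 had 1.34 and 1.58 CPM in deleted cells and 1.04, 0.928 and 1.10 CPM in wildtype cells, a log2 fold change of 0.51 ± 0.15 (SE; adjusted p = 0.0225, edgeR). The rise did not run through all of Aldh1l2. Of its 18 bins with at least 10 counts, 10 were above wildtype in both deleted libraries. Bin 17 was below, with 0 and 0 counts in deleted libraries and 5, 2 and 3 in wildtype ones. Bin 1 held on average 45.8% of the gene's counts in deleted libraries and 46.8% in wildtype ones. The groups did not overlap for either gene, but the differences were small and the calls ended in several fits with a library left out. For Aldh1l1, edgeR adjusted p was 0.124 without deleted 1, 0.0644 without deleted 2, 0.0517 without wildtype 1 and 0.0509 without wildtype 2. For Aldh1l2, edgeR adjusted p was 0.204 without deleted 2, 0.0612 without wildtype 1 and 0.0659 without wildtype 2. In GENCODE, exons on the opposite strand overlap both genes (Gm15756 for Aldh1l1, D10Wsu102e for Aldh1l2), and the strand setting of the counts is not given in the sources used here. Reads of the overlaps therefore cannot be told apart. Of their stretches of 50 bases, 10% in Aldh1l1 and 13.6% in Aldh1l2 occur in another gene. The other tested Aldh genes did not pass. Among them Aldh1a2, which makes retinoic acid from retinaldehyde, had 1.89 and 1.97 CPM in deleted cells and 2.27, 1.86 and 1.86 CPM in wildtype cells (log2 fold change −0.05 ± 0.13, SE; adjusted p = 0.802, edgeR).

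The Akr1c genes form a cluster on chromosome 13 and reduce ketosteroids and other carbonyls. Of 8 Akr1c members, 4 were tested and 3 were higher, where 19.0% of all tested symbols were higher. Akr1c18, the mouse 20-alpha-hydroxysteroid dehydrogenase that inactivates progesterone, had 0.354 and 0.343 CPM in deleted cells, against 0.145, 0.166 and 0.157 CPM in wildtype cells. Both deleted values were above all wildtype values, with a log2 fold change of 1.15 ± 0.25 (SE; adjusted p = 0.0059, edgeR). In CPM, 8 of 9 counted bins showed the same order in all libraries, but on few counts. Bin 5 had 2 counts in every library, and bin 6 had 2 counts in all libraries but wildtype 3, which had 3. The order in these bins came from library size. Akr1c18 was the only called member that also passed under every alternative tried that could test it. Its most counted bin had too few counts for a test, and that fit was the only alternative in which Aldh3a1 and Cyp11a1 did not pass. Akr1c13 had 1.24 and 1.07 CPM in deleted cells and 0.812, 0.744 and 0.680 CPM in wildtype cells, a log2 fold change of 0.64 ± 0.16 (SE; adjusted p = 0.0109, edgeR). The call ended without deleted 1 (0.53; adjusted p = 0.106, edgeR). Akr1c12 had 0.268 and 0.323 CPM in deleted cells and 0.0723, 0.184 and 0.0787 CPM in wildtype cells, a log2 fold change of 1.48 ± 0.40 (SE; adjusted p = 0.0183, edgeR). It met the low-count filter only with the deleted libraries, and the call ended without either of them (edgeR, adjusted p = 0.0667 in the fit lacking deleted 1 and 0.135 in that lacking deleted 2).

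Akr1c12 and Akr1c13 cannot be fully separated by reads. Of the stretches of 50 bases in Akr1c12 transcripts, 28.6% also occur in another gene, mostly Akr1c13, and 24.2% of those of Akr1c13 occur elsewhere, mostly in Akr1c12. For Akr1c18 this share was 0.581%. Summed over both copies, levels were 1.51 and 1.39 CPM in deleted cells and 0.884, 0.928 and 0.759 CPM in wildtype cells. The sum had a log2 fold change of 0.77 ± 0.15 (SE; adjusted p = 0.00332, edgeR) and passed with each library left out (edgeR adjusted p of 0.00238 to 0.0371). The whole cluster of 8 genes summed to 2.16 and 1.87 CPM in deleted cells and 1.25, 1.16 and 1.07 CPM in wildtype cells.

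The likeness of Akr1c12 and Akr1c13 extends upstream of the genes, as the RefSeq promoters of the 3 higher Akr1c members show. Each runs from 250 bases before to 50 bases after the start in GRCm38.p6, a later build than the mm9 of the counts. They are printed 5′ to 3′, and capitals mark the longest run that the first 2 share, of 75 bases. Over the alignment, Akr1c12 and Akr1c13 were identical in 93.4% of positions, and Akr1c18 in 51.4% with Akr1c12 and 50.7% with Akr1c13.
Akr1c12, chr13:4279350-4279649, minus strand: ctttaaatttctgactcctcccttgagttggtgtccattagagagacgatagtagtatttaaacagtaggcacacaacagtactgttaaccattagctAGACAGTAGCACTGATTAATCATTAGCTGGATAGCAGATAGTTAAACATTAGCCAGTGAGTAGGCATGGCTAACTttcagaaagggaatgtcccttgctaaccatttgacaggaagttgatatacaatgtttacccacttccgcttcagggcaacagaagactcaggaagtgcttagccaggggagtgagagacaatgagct
Akr1c13, chr13:4190937-4191236, plus strand: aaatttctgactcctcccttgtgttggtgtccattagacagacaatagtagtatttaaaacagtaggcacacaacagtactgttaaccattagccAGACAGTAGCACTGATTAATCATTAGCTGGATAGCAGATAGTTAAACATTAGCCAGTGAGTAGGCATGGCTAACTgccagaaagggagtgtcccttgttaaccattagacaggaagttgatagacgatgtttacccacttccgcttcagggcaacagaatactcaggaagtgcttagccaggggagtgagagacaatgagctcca
Akr1c18, chr13:4150597-4150896, minus strand: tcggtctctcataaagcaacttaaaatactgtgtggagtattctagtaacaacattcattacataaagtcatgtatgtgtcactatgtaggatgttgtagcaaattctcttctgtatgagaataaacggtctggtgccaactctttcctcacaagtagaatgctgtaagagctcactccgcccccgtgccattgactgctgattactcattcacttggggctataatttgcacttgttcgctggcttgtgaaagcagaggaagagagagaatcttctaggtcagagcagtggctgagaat

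**Figure D3:**
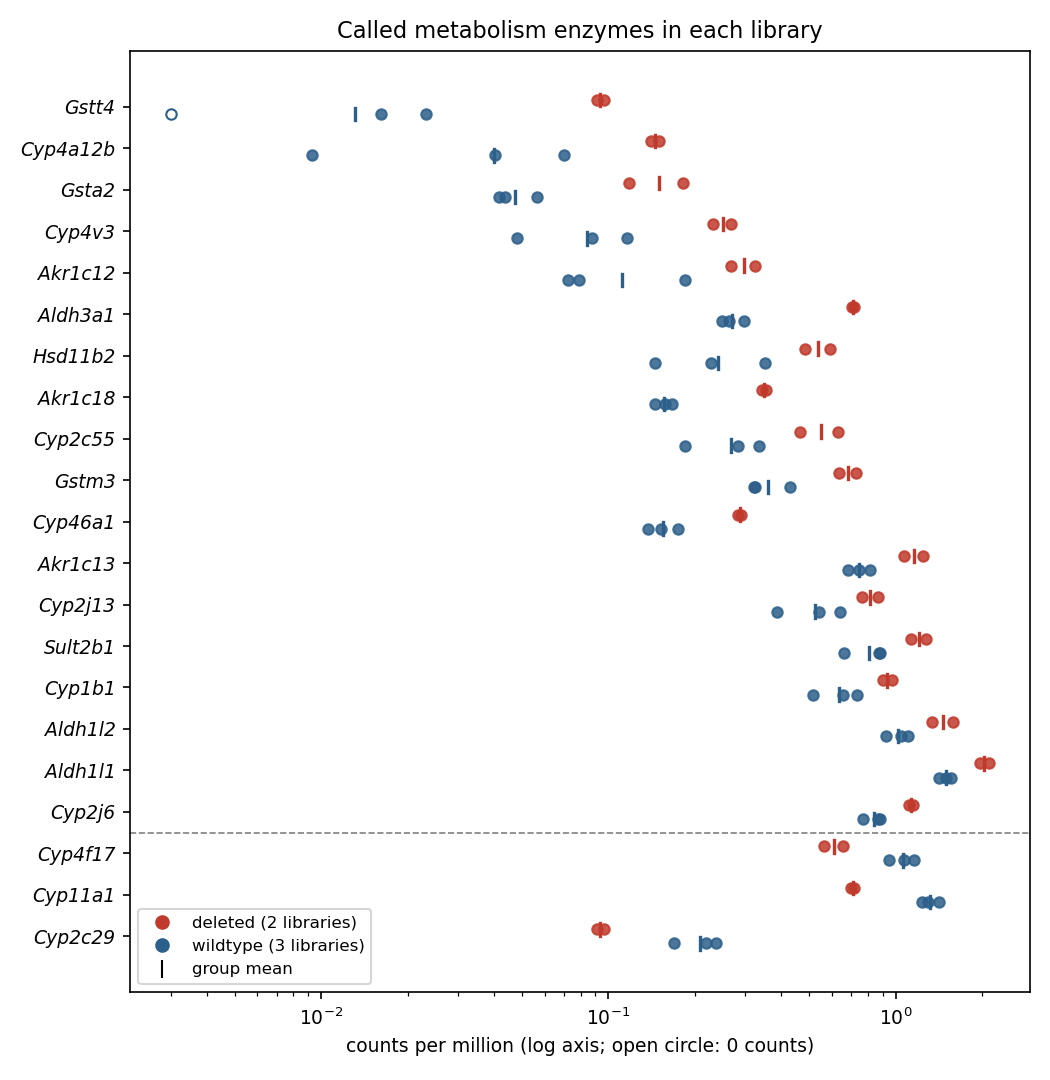
Level of the 21 called members in each library (CPM, log axis), deleted above wildtype within each row, with vertical ticks for group means. The 18 higher members lie above the dashed line and the 3 lower members below it, and the groups do not overlap for any of the 21.

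The glutathione S-transferases attach glutathione to reactive compounds. All 6 members were tested, and 3 were higher, where 19.0% of all tested symbols were higher. Gstm3 was the only higher one among the 3 that met the low-count filter in wildtype libraries alone. Gstm3 had 0.729 and 0.636 CPM in deleted cells, against 0.322, 0.429 and 0.324 CPM in wildtype cells. The log2 fold change was 0.95 ± 0.21 (SE; adjusted p = 0.00641, edgeR), with all 8 bins higher on average, and 0.84 without deleted 1 (adjusted p = 0.0635, edgeR). Of its stretches of 50 bases, 28.8% occur in another gene, mostly the predicted gene Gm8834. Its neighbour Gstm6 had 0.879 and 0.828 CPM in deleted cells and 0.522, 0.726 and 0.648 CPM in wildtype cells, which did not pass (log2 fold change 0.43 ± 0.18, SE; adjusted p = 0.0901, edgeR). The most counted bin of Gstm6 passed alone (0.98; adjusted p = 0.036, edgeR).

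Gsta2 and Gstt4 rested on few counts. Gsta2 had 11 and 18 counts in the deleted libraries, against 7, 5 and 9 in the wildtype ones (log2 fold change 1.68 ± 0.43, SE; adjusted p = 0.0132, edgeR), and the call ended without deleted 2 (1.31; adjusted p = 0.145, edgeR). Gstt4 had 9 and 9 counts in deleted libraries, against 2, 0 and 5 in wildtype ones (2.54 ± 0.70, SE; adjusted p = 0.0189, edgeR). Its call ended without deleted 1 and without deleted 2 (adjusted p = 0.101 and 0.0942, edgeR). Both genes met the low-count filter only with the deleted libraries. Gsta2 shares 49.8% of its stretches of 50 bases with other genes, mostly Gsta1, whose own difference did not pass (adjusted p = 0.15, edgeR). For Gsta1 this share was 90.5%, mostly with Gm3776, which is not part of the sum of Gsta1 and Gsta2. Reads of that sum therefore cannot all be assigned to these 2 genes. The sum of Gsta1 and Gsta2 was 0.418 and 0.242 CPM in deleted cells and 0.169, 0.0788 and 0.0833 CPM in wildtype cells, a log2 fold change of 1.61 ± 0.40 (SE; adjusted p = 0.0122, edgeR). The sum did not pass without deleted 1 (1.17; adjusted p = 0.148, edgeR).

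Of the sulfotransferases, 3 of 16 were tested and Sult2b1, which sulfates cholesterol and pregnenolone, was higher. It had 1.13 and 1.28 CPM in deleted cells, against 0.884, 0.875 and 0.662 CPM in wildtype cells (log2 fold change 0.60 ± 0.18, SE; adjusted p = 0.0247, edgeR). The call ended without deleted 1 and without deleted 2 (adjusted p = 0.0672 and 0.173, edgeR). Exons of Lmtk3 overlap Sult2b1 on the opposite strand, so reads of the overlap cannot be told apart; 5.75% of its stretches of 50 bases occur in another gene. The 8 Sult2a copies summed to 0.321 and 0.242 CPM in deleted cells and 0.346, 0.376 and 0.218 CPM in wildtype cells, and their groups overlapped.

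**Figure D4:**
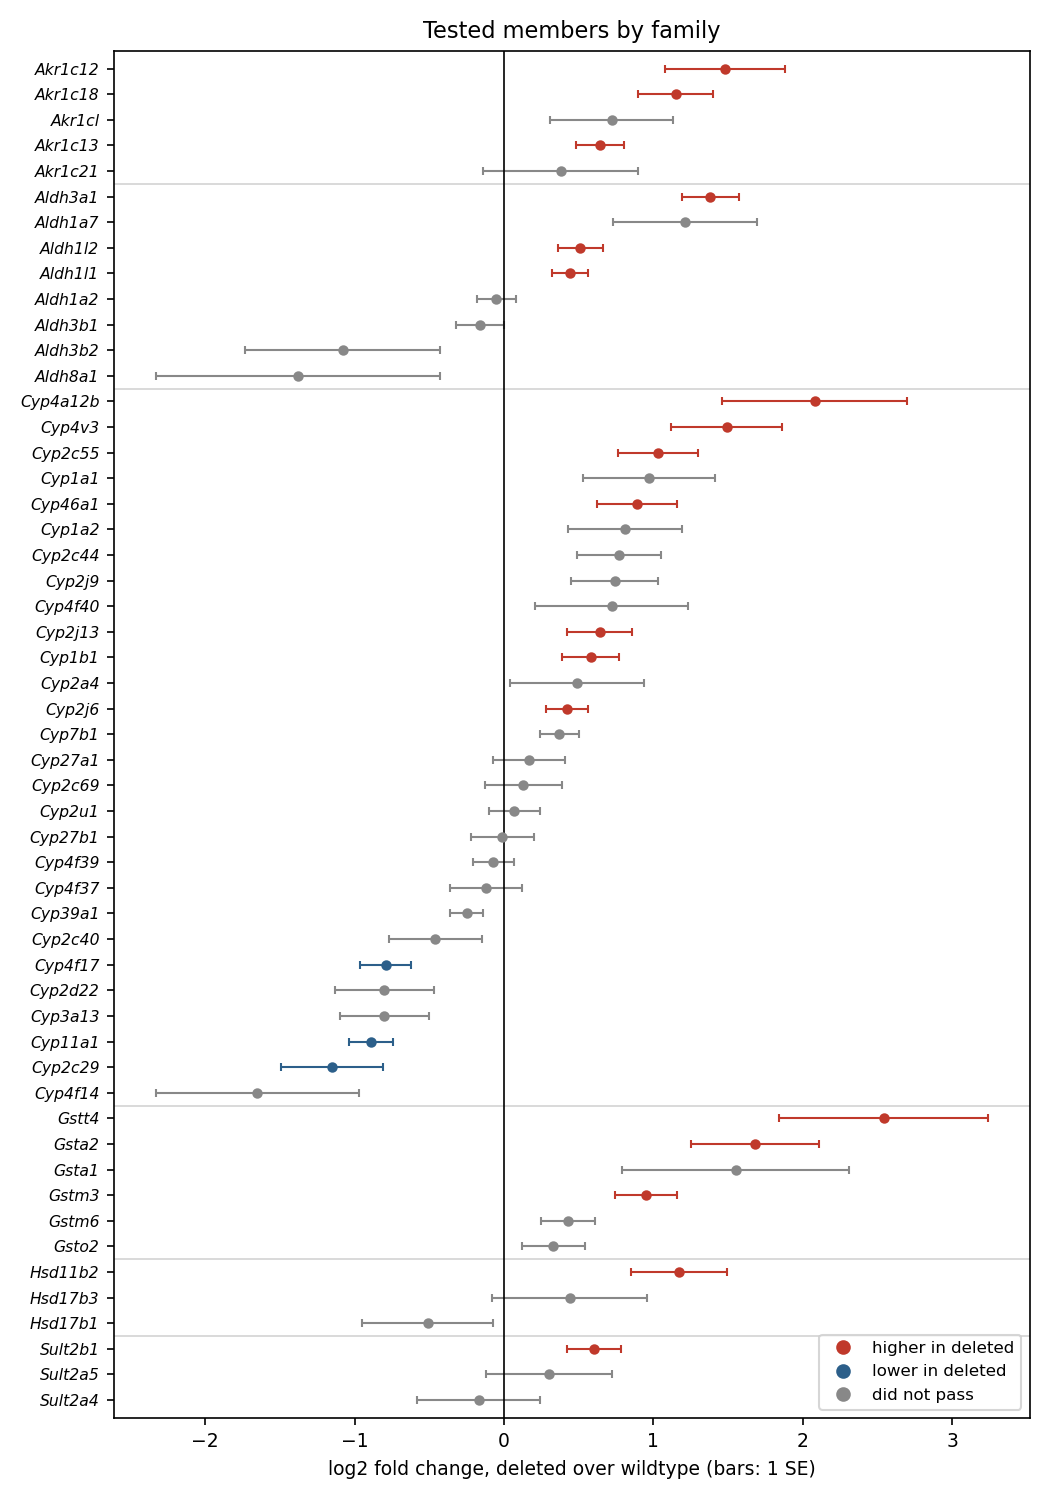
Log2 fold change, deleted over wildtype, of the 53 tested members grouped by family from Akr at the top to Sult at the bottom, with bars of 1 SE. The 28 Cyp estimates spread from −1.65 for Cyp4f14 to 2.08 for Cyp4a12b, and the 5 Akr and 6 Gst estimates are above 0, of which the low-count filter favoured a positive sign in the 1 Akr and 3 Gst genes that met it only with the deleted libraries.

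In steroid hormone metabolism the entry enzyme was lower. Cyp11a1 cleaves the side chain of cholesterol to give pregnenolone, the precursor of all steroid hormones. It had 0.718 and 0.697 CPM in deleted cells, against 1.41, 1.23 and 1.30 CPM in wildtype cells. The groups were well apart, with a log2 fold change of −0.89 ± 0.15 (SE; adjusted p = 0.00161, edgeR). All 9 bins were lower on average, and 7 of them in every pairing of a deleted with a wildtype library. The most counted bin taken alone gave no call (−0.75; adjusted p = 0.103, edgeR). The enzymes that follow it had too few counts to test, with 4 counts over all libraries for Cyp17a1 and 3 for Cyp19a1, the oestrogen-forming aromatase. The 6 Hsd3b genes together had 2 and 0 counts in the deleted libraries and 5, 5 and 2 in the wildtype ones. Of the 8 marker genes listed for steroid-producing cells, 6 had rows, Hsd3b1, Mc2r and Lhcgr were at 0 and Cyp11a1 was the only one tested. Their sum was 0.718 to 0.727 CPM in deleted libraries and 1.23 to 1.41 CPM in wildtype ones, and nearly all of it was Cyp11a1. In the annotation the predicted gene Gm17322 overlaps Cyp11a1 on the same strand, and reads of the overlap cannot be told apart.

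Hsd11b2, which inactivates glucocorticoids and so shields the mineralocorticoid receptor, had 0.589 and 0.485 CPM in deleted cells and 0.145, 0.350 and 0.227 CPM in wildtype cells. Its log2 fold change was 1.17 ± 0.32 (SE; adjusted p = 0.0182, edgeR). The call ended without deleted 1 (1.03; adjusted p = 0.137, edgeR) and without deleted 2 (1.29; adjusted p = 0.0653, edgeR). Nr3c2, the gene of that receptor and not a member, was also higher, with 0.568 and 0.747 CPM in deleted cells and 0.225, 0.166 and 0.361 CPM in wildtype cells (1.31 ± 0.31, SE; adjusted p = 0.00958, edgeR), and ended without deleted 2 (1.08; adjusted p = 0.106, edgeR). Both genes lie on chromosome 8. Of 160 tested symbols on that chromosome 42.5% were higher and 1.25% lower, with a median log2 fold change of 0.52, against 18.1%, 13.6% and 0.05 for the symbols placed elsewhere. The part of this chromosome-wide shift in either gene was not tested. The other tested Hsd genes, Hsd17b1 and Hsd17b3, did not pass (adjusted p = 0.4 and 0.536, edgeR). Of the list of steroid synthesis and receptor genes, 9 of 34 were tested, 4 were higher (Akr1c18, Hsd11b2, Nr3c2 and Sult2b1) and 1 was lower (Cyp11a1). Of all tested symbols 19.0% were higher and 13.1% lower. All of these called genes except Nr3c2 are members, so their calls are already counted above.

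Among the sterol-hydroxylating enzymes, Cyp39a1 and Cyp7b1 were well counted per length of exon, and Cyp27a1 and Cyp46a1, at 0.134 and 0.0631 CPM per kilobase, were lower. Cyp39a1, which acts on 24-hydroxycholesterol, had the highest level of all members at 0.922 CPM per kilobase of exon, followed by Aldh1a2 at 0.870 and Cyp7b1, the oxysterol 7-alpha-hydroxylase, at 0.667. Cyp39a1 had 2.45 and 2.58 CPM in deleted cells and 3.18, 3.08 and 2.77 CPM in wildtype cells. It did not pass (log2 fold change −0.25 ± 0.11, SE; adjusted p = 0.0973, edgeR), though it did without wildtype 3 (−0.32; adjusted p = 0.0237, edgeR). Cyp7b1 had 1.59 and 1.76 CPM in deleted cells and 1.42, 1.23 and 1.23 CPM in wildtype cells, just outside the threshold (0.37 ± 0.13, SE; adjusted p = 0.0527, edgeR). Cyp46a1, the cholesterol 24-hydroxylase known from neurons, was higher, with 0.289 and 0.283 CPM in deleted cells and 0.137, 0.175 and 0.153 CPM in wildtype cells (0.89 ± 0.27, SE; adjusted p = 0.0269, edgeR). That call did not hold with DESeq2 (adjusted p = 0.0758) and, with edgeR, without deleted 1, deleted 2 or wildtype 1 (adjusted p = 0.131, 0.115 and 0.0691). Of 3 tested neural markers none was higher by edgeR, by DESeq2 or at an unadjusted p under 0.05, and 1 (Gfap) was lower. Among all tested symbols 19.0% were higher and 13.1% lower. The neural markers summed to 4.73 to 5.69 CPM in deleted libraries and 4.85 to 7.06 CPM in wildtype ones. Cyp7a1 and Cyp8b1, which set bile acid synthesis in liver, had 2 counts and 0 counts over all libraries. Cyp27a1, which starts the acidic route to bile acids, had 0.354 and 0.273 CPM in deleted cells and 0.289, 0.263 and 0.278 CPM in wildtype cells, overlapping groups that did not pass (adjusted p = 0.6, edgeR). Cyp27b1, which activates vitamin D, had 0.493 and 0.495 CPM in deleted cells and 0.482, 0.595 and 0.435 CPM in wildtype cells (−0.01 ± 0.21, SE; adjusted p = 0.975, edgeR). Of the list of sterol and bile acid genes, 8 of 25 were tested, with Cyp46a1 higher and the cholesterol efflux pump gene Abca1 lower. Abca1 had 3.64 and 3.71 CPM in deleted cells and 5.39, 5.51 and 5.61 CPM in wildtype cells (−0.58 ± 0.09, SE; adjusted p = 0.000949, edgeR).

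The Cyp4 enzymes, which hydroxylate the far end of fatty acids, had 7 of 19 members tested. Of these 2 were higher, 1 was lower and 4 did not pass, where 19.0% of all tested symbols were higher and 13.1% lower. Cyp4f17 had 0.654 and 0.565 CPM in deleted cells, against 1.07, 1.16 and 0.949 CPM in wildtype cells. Its log2 fold change was −0.79 ± 0.17 (SE; adjusted p = 0.00615, edgeR), with 9 of 13 bins below wildtype in both deleted libraries. It missed the threshold without deleted 2 (−0.71; adjusted p = 0.055, edgeR) and in the most counted bin alone (−0.45; adjusted p = 0.265, edgeR). The best counted of its relatives, Cyp4f39, had 1.17 and 1.16 CPM in deleted cells and 1.21, 1.34 and 1.13 CPM in wildtype cells, overlapping groups that did not pass (−0.07 ± 0.14, SE; adjusted p = 0.746, edgeR). The 7 Cyp4f genes summed to 2.54 and 2.33 CPM in deleted cells and 2.93, 3.24 and 2.84 CPM in wildtype cells.

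Cyp4v3, the mouse counterpart of a human gene mutated in a crystalline retinal dystrophy, had 0.268 and 0.232 CPM in deleted cells, against 0.0482, 0.0875 and 0.116 CPM in wildtype cells (log2 fold change 1.49 ± 0.37, SE; adjusted p = 0.0128, edgeR). It too lies on chromosome 8, the predicted gene Gm45753 overlaps it on the same strand, and its call ended without deleted 1 and without deleted 2 (adjusted p = 0.0934 and 0.0623, edgeR). Cyp4a12b had 14 and 14 counts in deleted libraries, against 5, 8 and 2 in wildtype ones (2.08 ± 0.62, SE; adjusted p = 0.0269, edgeR). It met the filter only with the deleted libraries, and 49.4% of its stretches of 50 bases occur elsewhere, mostly in Cyp4a12a. The summed copies Cyp4a12a and Cyp4a12b had 20 and 22 counts in deleted libraries and 9, 8 and 2 in wildtype ones (2.32 ± 0.59, SE; adjusted p = 0.0141, edgeR). Neither call held without a deleted library, at an edgeR adjusted p = 0.131 and 0.12 for Cyp4a12b and 0.0824 and 0.0861 for the sum without deleted 1 and deleted 2. Cyp4a12b also missed the threshold without wildtype 1 (adjusted p = 0.054, edgeR).

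**Figure D5:**
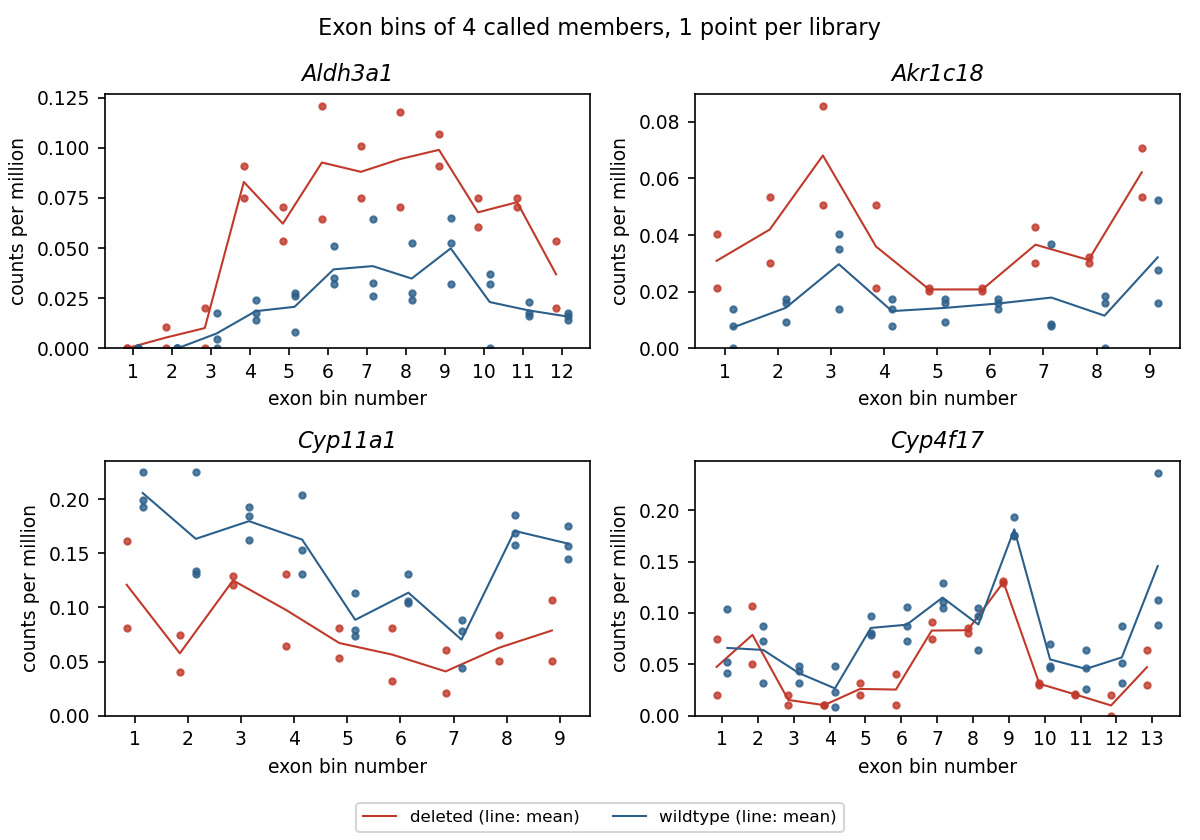
Level of each exon bin (CPM) of Aldh3a1, Akr1c18, Cyp11a1 and Cyp4f17, with 1 point per library and lines for group means, deleted in red and wildtype in blue. The deleted line runs above wildtype from bin 4 to bin 12 of Aldh3a1 and below it over all 9 bins of Cyp11a1, while in Cyp4f17 the groups overlap in 4 of 13 bins.

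Among the Cyp1 to Cyp3 genes, which oxidise drugs, pollutants and arachidonic acid, 4 of 15 tested were higher and 1 was lower by edgeR. Of all tested symbols 19.0% were higher and 13.1% lower. By DESeq2 only 1 of the 15 was called, Cyp2c55. Cyp2c55 had 0.632 and 0.464 CPM in deleted cells, against 0.185, 0.333 and 0.282 CPM in wildtype cells (log2 fold change 1.03 ± 0.27, SE; adjusted p = 0.016, edgeR), a call that ended without deleted 1 (0.79; adjusted p = 0.152, edgeR). Its relative Cyp2c29 was lower, with 9 and 9 counts in deleted libraries against 21, 27 and 47 in wildtype ones (−1.15 ± 0.34, SE; adjusted p = 0.027, edgeR). The Cyp2c29 call ended with DESeq2 (adjusted p = 0.0653) and, with edgeR, without deleted 1, deleted 2 or wildtype 2 (adjusted p = 0.118, 0.127 and 0.0594). On its strand Cyp2c29 overlaps the pseudogene Cyp2c53-ps, and Gm23800 overlaps Cyp2c55 on the other strand. These genes of 1 cluster on chromosome 19 thus stood on opposite sides of wildtype, and the 16 Cyp2c members together had 2.26 and 2.12 CPM in deleted cells and 1.63, 2.00 and 1.99 CPM in wildtype cells.

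Other Cyp2 and Cyp3 genes lay just outside the threshold. Cyp2c44 had 0.429 and 0.363 CPM in deleted cells, against 0.281, 0.263 and 0.176 CPM in wildtype cells (log2 fold change 0.77 ± 0.28, SE; adjusted p = 0.0534, edgeR). Cyp3a13 had 0.150 and 0.131 CPM in deleted cells, against 0.249, 0.289 and 0.213 CPM in wildtype cells (−0.80 ± 0.30, SE; adjusted p = 0.0643, edgeR). Cyp2d22 had 0.118 and 0.101 CPM in deleted cells, against 0.185, 0.228 and 0.171 CPM in wildtype cells (−0.80 ± 0.33, SE; adjusted p = 0.0872, edgeR). The groups did not overlap for any of these 3 genes, with deleted above for Cyp2c44 and below for the other two.

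The Cyp2j genes, epoxygenases and hydroxylases of arachidonic acid in a cluster on chromosome 4, summed to 2.59 and 2.69 CPM over 7 genes in deleted cells, against 1.66, 1.80 and 1.87 CPM in wildtype cells. Of 3 tested, Cyp2j6 and Cyp2j13 were higher and Cyp2j9 did not pass (log2 fold change 0.74 ± 0.29, SE; adjusted p = 0.0754, edgeR). Cyp2j6 had 1.15 and 1.11 CPM in deleted cells and 0.772, 0.884 and 0.870 CPM in wildtype cells (0.42 ± 0.14, SE; adjusted p = 0.0444, edgeR). Cyp2j13 had 0.761 and 0.868 CPM in deleted cells and 0.386, 0.639 and 0.541 CPM in wildtype cells (0.64 ± 0.22, SE; adjusted p = 0.0451, edgeR). Both were close to the threshold. With edgeR, Cyp2j6 did not pass without deleted 1, deleted 2, wildtype 1 or wildtype 2 (adjusted p = 0.189, 0.149, 0.131 and 0.0708), and Cyp2j13 did not without deleted 1, deleted 2 or wildtype 1 (0.109, 0.245 and 0.103). With DESeq2 neither passed (adjusted p = 0.0943 for Cyp2j6 and 0.063 for Cyp2j13). In its most counted bin Cyp2j6 had a log2 fold change of −0.08 (adjusted p = 0.878, edgeR).

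Cyp1b1, which hydroxylates oestradiol and polycyclic pollutants outside the liver, had 0.900 and 0.969 CPM in deleted cells and 0.731, 0.656 and 0.514 CPM in wildtype cells (log2 fold change 0.58 ± 0.19, SE; adjusted p = 0.0368, edgeR). Its call ended with DESeq2 (adjusted p = 0.0606) and whenever 1 library was left out, except for wildtype 1 (edgeR, adjusted p = 0.114, 0.187, 0.0686 and 0.0714 without deleted 1, deleted 2, wildtype 2 and wildtype 3). Cyp1b1 is also known from fibroblasts, which can serve as feeder cells. Of 12 fibroblast markers 11 had rows. Of these Postn, Lum, Dcn and Col3a1 were nearly absent, with 1, 1, 3 and 12 counts over all libraries, and Fbn1 and Pdgfrb made up most of the sum. In this list 5 of 7 tested were higher, where 19.0% of all tested symbols were higher. Among the 5, Col6a1 met the low-count filter only with the deleted libraries, which favoured a positive sign. None of the 7 was lower by edgeR, by DESeq2 or at an unadjusted p under 0.05. The list summed to 13.5 to 13.7 CPM in deleted libraries against 9.18 to 12.4 CPM in wildtype ones. The part of fibroblasts in the Cyp1b1 difference was not tested, and in bulk RNA more cells of a type and more RNA per cell cannot be told apart. Cyp1a1 and Cyp1a2, the other Cyp1 genes, did not pass (adjusted p = 0.11 and 0.126, edgeR) although both were above wildtype in each deleted library.

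The Cyp1 genes are textbook targets of the aryl hydrocarbon receptor, which with its partner binds a core of GCGTG. Ahr, the gene of that receptor, had 5.06 and 4.62 CPM in deleted cells and 3.87, 3.50 and 4.16 CPM in wildtype cells (log2 fold change 0.33 ± 0.10, SE; adjusted p = 0.0343, edgeR). Arnt2, the gene of a protein that can pair with it, had 5.08 and 5.82 CPM in deleted cells and 3.62, 3.97 and 4.55 CPM in wildtype cells (0.43 ± 0.12, SE; adjusted p = 0.0199, edgeR). Neither call held with each library left out in turn. With edgeR, Ahr passed with 1 library left out only where that was wildtype 3, the other fits not passing (adjusted p of 0.0974 to 0.226), and Arnt2 did not without deleted 2, wildtype 1 or wildtype 2 (0.205, 0.0766 and 0.061). In the RefSeq promoters, searched on both strands, GCGTG occurred in 22 of the 125 members that have an entry, taking each member's first entry. Among all 32851 entries, several for some genes, its share was 32.4%. It occurred in 6 of 14 higher members with an entry, in 6 of 25 tested members that did not pass and in none of 2 lower ones. A core of the antioxidant response element, TGACNNNGC, was in 1 of those 14, Cyp2j6, and in 12.4% of all entries. The 6 higher members with GCGTG were Cyp1b1, Cyp2j13, Cyp46a1, Cyp4v3, Gsta2 and Sult2b1. A match is only a run of letters and does not show a binding site. The promoters of Cyp1b1 and Cyp46a1, shown because they hold 1 and 4 copies of GCGTG, carry each copy in capitals (as CACGC where it lies on the other strand).
Cyp1b1, chr17:79715012-79715311, minus strand: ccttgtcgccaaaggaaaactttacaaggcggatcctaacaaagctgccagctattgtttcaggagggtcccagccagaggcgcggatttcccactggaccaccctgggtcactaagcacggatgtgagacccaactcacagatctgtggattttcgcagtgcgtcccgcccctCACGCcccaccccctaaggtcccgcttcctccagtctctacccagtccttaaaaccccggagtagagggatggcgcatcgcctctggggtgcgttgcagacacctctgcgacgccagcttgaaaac
Cyp46a1, chr12:108334066-108334365, plus strand: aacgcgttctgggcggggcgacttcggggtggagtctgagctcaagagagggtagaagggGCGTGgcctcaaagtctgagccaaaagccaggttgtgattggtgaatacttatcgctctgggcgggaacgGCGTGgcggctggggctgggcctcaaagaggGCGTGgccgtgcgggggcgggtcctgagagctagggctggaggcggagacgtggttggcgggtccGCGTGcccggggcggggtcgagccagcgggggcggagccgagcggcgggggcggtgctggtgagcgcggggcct

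Of 3 tested members of the retinoid pathway none passed by edgeR or DESeq2, and 1 of them, Aldh1a7, had an unadjusted edgeR p under 0.05. The Cyp26 genes, which clear retinoic acid, were not tested, summing to 0.246 and 0.202 CPM in deleted cells (23 and 20 counts) and to 0.113, 0.140 and 0.190 CPM in wildtype cells (14, 16 and 41 counts). Both deleted sums were above all wildtype sums, with no test made. Aldh8a1, a retinaldehyde dehydrogenase, had 1 and 4 counts in deleted libraries and 12, 1 and 19 in wildtype ones and did not pass (adjusted p = 0.284, edgeR). Of the 9 tested genes of the retinoid list only Dhrs3, whose product turns retinaldehyde back to retinol, was called. It had 0.632 and 0.656 CPM in deleted cells, against 1.33, 1.23 and 1.23 CPM in wildtype cells, a log2 fold change of −0.97 ± 0.15 (SE; adjusted p = 0.001, edgeR). The retinol uptake gene Stra6 (−1.02 ± 0.48), the retinol dehydrogenase gene Rdh16 (−0.70 ± 0.28), the receptor gene Rxrg (−0.38 ± 0.15) and Lrat (−0.39 ± 0.47) had negative log2 fold changes that did not pass (SE; edgeR adjusted p of 0.0654 to 0.539). Rxrg passed without wildtype 3 (−0.43; adjusted p = 0.0322, edgeR). The carotenoid oxygenase genes Bco1 and Bco2 had 0.59 ± 0.50 and 0.73 ± 0.40 (SE; adjusted p = 0.384 and 0.182, edgeR).

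Of the partners of these enzymes, 12 of 36 listed sensors and other drug-metabolising genes were tested and 4 were higher. Of all tested symbols 19.0% were higher and 13.1% lower. None of the 12 was lower by edgeR, by DESeq2 or at an unadjusted p under 0.05. The 4 higher partners included Ahr, Arnt2 and Nat1. Nat1, an arylamine acetyltransferase gene on chromosome 8, had 0.79 ± 0.26 (SE; adjusted p = 0.0382, edgeR) and passed with a library left out only for wildtype 2; the other such fits gave 0.0763 to 0.2, and DESeq2 gave 0.0967. The xenobiotic sensor gene Nr1i2 had 0.20 ± 0.37 (SE; adjusted p = 0.7, edgeR). Of 4 tested transporters, Abcc2, an efflux pump for conjugates, was higher, with 0.547 and 0.555 CPM in deleted cells and 0.289, 0.298 and 0.278 CPM in wildtype cells (0.94 ± 0.19, SE; adjusted p = 0.00483, edgeR). The hepatic uptake carrier gene Slco1b2 was lower at −1.81 ± 0.46 (SE; adjusted p = 0.0129, edgeR), not passing without deleted 1 or deleted 2 (0.089 and 0.0673). Of 5 tested glutathione genes, Ggt1, whose product cleaves glutathione outside the cell, was lower at −0.37 ± 0.11 (SE; adjusted p = 0.0315, edgeR). It did not pass without deleted 1, deleted 2 or wildtype 2 (adjusted p = 0.222, 0.0529 and 0.091, edgeR).

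Markers of the tissues best known for these enzymes were weakly counted. Of 12 hepatocyte markers 11 had rows, Ttr and Fgb were at 0 counts and only Apob was tested, which did not pass (adjusted p = 0.278, edgeR). Their summed level was 1.30 to 1.58 CPM in deleted libraries and 0.814 to 1.25 CPM in wildtype ones. Gut markers had 6 of 8 rows, with Fabp1 and Alpi at 0. Of 2 tested, Cdx2 was lower (log2 fold change −1.32 ± 0.43, SE; adjusted p = 0.0385, edgeR; not called by DESeq2) and Lct did not pass (0.72 ± 0.25, SE; adjusted p = 0.051, edgeR). The gut list summed to 0.545 to 0.557 CPM in deleted libraries and 0.411 to 0.611 CPM in wildtype ones. Of 13 endoderm markers with rows 9 were tested, 1 was higher and 2 were lower, where 19.0% of all tested symbols were higher and 13.1% lower. The endoderm markers summed to 6.01 to 6.83 CPM in deleted libraries and 7.94 to 8.95 CPM in wildtype ones, with Ttr and Apoa4 at 0. Genes of the 2-cell embryo, which a few cells of such cultures are known to express, were higher in 9 of 9 cases tested, against 19.0% of all tested symbols. This list was chosen with earlier results of these data known, so the count is not an independent result. The list summed to 16.1 to 16.2 CPM in deleted libraries and 2.79 to 3.08 CPM in wildtype ones. Of the 9 tested genes of the 2-cell embryo, 4 met the low-count filter only with the deleted libraries. The part of these cell types in the enzyme differences was not tested.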

How the data were processed

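Read counts per exon bin, deposited by the authors as 1 table of 243771 bins and 5 libraries, were used as raw counts. The submitters' processing notes name STAR, without a version, and the build mm9. The annotation and the strand setting of the counts were not found in the labels. Bins were added up by gene after 56 spike-in names had been set aside. The low-count filter was filterByExpr with a minimum count of 10, scaling was by TMM, and the test was the robust quasi-likelihood F test of edgeR 4.0.16 under R 4.3.3 with limma 3.58.1. P-values were adjusted by Benjamini and Hochberg's method over all 16259 tested genes. Fold changes are deleted over wildtype. Alternatives were size factors, low-count filters, DESeq2 1.42.0, a replicate block, the most counted bin, each library left out and, added after seeing the data, robust estimation off and summed counts of near-identical copies. GENCODE M21 (GRCm38) gave chromosomes and exon lengths for 158 of 160 members. Members and lists were chosen with earlier results of these data known. Named were all called members, the 10 best counted, the best by p and by level per family, all tested retinoid genes, and up to 4 called genes per other list. Genes added outside this rule were chosen after their values were seen. The values of 1 called gene of these lists are not reported here.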

Additional observations from a re-analysis of the deposited data

How the results depend on the processing

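Main counts were 18 higher and 3 lower members, 6453 called genes, 1152 called symbols and 10 called list genes that are not members. With the most counted bin per gene, where 28 members were tested, 4 members were higher and 0 lower with edgeR, against 10 and 1 at an unadjusted p under 0.05; DESeq2 was not run on bins. Leaving out each replicate in turn gave 4 to 18 higher members, 1 to 5 lower members, 3555 to 8347 genes, 613 to 1252 symbols and 4 to 10 list genes. The log2 fold change of Cyp2j6 was −0.08 in its most counted bin, and the cause was not tested. Under DESeq2 size factors, no filter, at least 10 counts in every library, DESeq2, the replicate block and robust estimation off, these counts stayed within 1.5 times; 14 members were higher and 2 lower with DESeq2 and with the stricter filter. Replicate numbers 1 and 2 occur in both groups. Deviations from the group means correlated at 0.0536 for deleted 1 with wildtype 1 and −0.0539 for deleted 2 with wildtype 2. With 2 deleted libraries the deviations of 1 mirror those of the other. These values therefore cannot show whether libraries of the same number share a batch. The replicate block gave 16 higher and 3 lower members, 8200 genes and 1207 symbols, and 16 of the 21 main member calls were among them. The number of counts limits the precision: the 107 untested members had at most 17 counts in any library.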
